A study of Mus musculus with 8 samples.

Results

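The tiles described here are 1279 windows of 1 kb on mouse chromosomes 1 to 19 that were partly methylated in untreated embryonic stem cells and more methylated in the libraries with L-proline. A CpG was used when each of the 8 libraries covered it with at least 10 reads, and a tile needed 3 to 10 such CpGs. The level of a tile is the share of methylated calls among all CpG calls in it, where a call is 1 read at 1 CpG. The tiles were chosen by the levels of the untreated and L-Prolin libraries: a tile entered when its level in untreated cells of day 2 lay between 15% and 70% and when the L-Prolin library exceeded the untreated library by 15 percentage points or more on both days. Of 35149 tiles with 3 to 10 CpGs, 10240 lay between 15% and 70%, and 1279 of these (12.5%) met the rule and are called gaining tiles. The other 8961 are called the other intermediate tiles and serve as the comparison.

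DNA methylation at CpG sites is copied to the new strand at each division by the maintenance enzyme DNMT1, set anew by DNMT3A and DNMT3B, and lost when copying fails or when TET enzymes oxidise the methyl group. Sites that are methylated in only some cells of a culture read as intermediate. Vitamin C is a cofactor of the TET enzymes and of other dioxygenases. L-proline added to mouse embryonic stem cells is known to move them towards a more mesenchymal, motile state that stays pluripotent.

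Embryonic stem cells of mouse strain 129/SvP were plated at low density in serum with LIF, a cytokine that sustains self-renewal. They received 1 mM L-proline with 500 µM vitamin C (L-Prolin-VitC), L-proline alone (L-Prolin), vitamin C alone (VitC) or neither (untreated), and DNA was collected on day 5 and day 2. Methylation was read by reduced representation bisulfite sequencing, which covers CpG-rich restriction fragments and does not tell 5-methylcytosine from 5-hydroxymethylcytosine. Each treatment and day has 1 library, so no difference below has a replicate check, and no source used here says whether the libraries came from separate cultures.

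The 8 libraries shared 616929 CpGs on these chromosomes, with a median of 27 to 56 reads per CpG. The contig named lambda, by custom an unmethylated control, read 0.195% to 0.513% methylated. A gaining tile held a median of 89 to 193 CpG calls per library, against 96 to 218 in the other intermediate tiles, and in VitC on day 5 both medians were 106. Calls on neighbouring CpGs often come from the same read, so intervals on calls are too narrow and cover counting error only.

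The L-proline difference chose the tiles, so its size in them is a description of the choice. Over the gaining tiles L-Prolin minus untreated had a median of 22.6 points on day 5 and 20.3 points on day 2, against 8.59 and 8.21 points in the other intermediate tiles. Over all 35149 tiles, 15.3% were 15 points or more higher on day 5, 11.1% on day 2 and 4.33% on both days. Among the intermediate tiles 3523 passed on day 5 and 2952 on day 2. Just inside the threshold lay a tile on chromosome 2 from 33522001 to 33523000 (coordinates are those of build mm9), with differences of 15 points on day 5 and 19.7 on day 2, and one on chromosome 15 from 84849001 to 84850000, with 15.003 and 19.8. Just outside lay a tile on chromosome 2 from 152153001 to 152154000, with 14.99 on day 5 and 17.4 on day 2, and one on chromosome 6 from 65056001 to 65057000, with 14.99 and 16.05.

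Across the libraries the gaining tiles had their highest levels with L-proline alone and their lowest with vitamin C alone. On day 5 the median tile level was 40.02% in L-Prolin-VitC, 78.6% in L-Prolin, 25.02% in VitC and 53.5% in untreated cells. On day 2 it was 39.8% in L-Prolin-VitC, 58.96% in L-Prolin, 29.8% in VitC and 36.8% in untreated cells. The gaining tiles had a lower median than the other intermediate tiles in 7 of the libraries, and the exception was L-Prolin on day 5, at 78.6% against 70.1%. In VitC the gaining tiles were lower than the other intermediate tiles, at 25.02% against 37.8% on day 5 and 29.8% against 41.5% on day 2. The vitamin C libraries took no part in the choice, but the sets were not matched on the level that did. In untreated cells of day 2 the medians were 36.8% and 52.6%. Among tiles at 15% to 30% in that library, the gaining tiles were the higher ones in VitC, at 14.5% against 9.89% on day 5. The spread among gaining tiles was wide, with the central 90% of tiles running from 6.26% to 57.5% in VitC on day 5 and from 13.5% to 72.1% in L-Prolin-VitC.

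**Figure D1:**
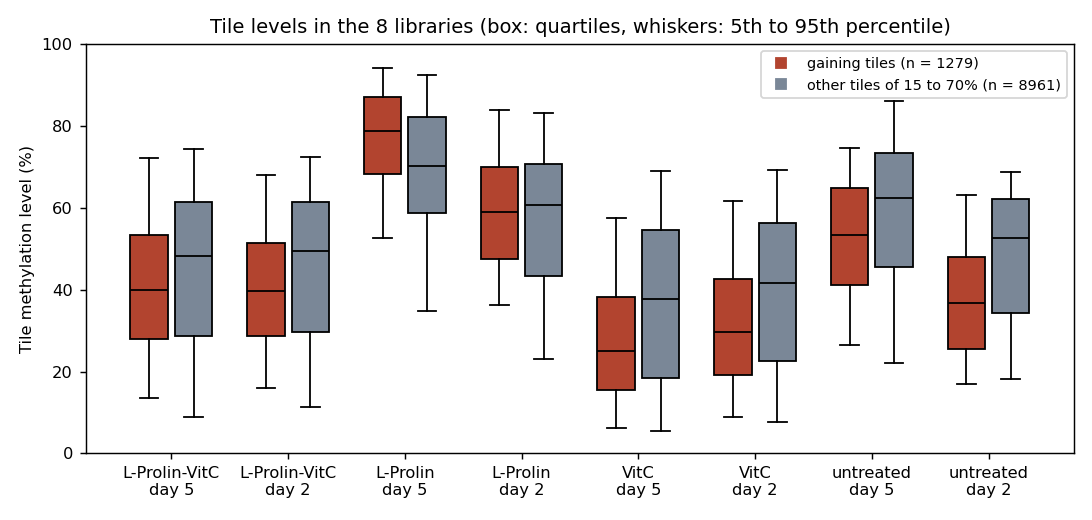
Tile methylation level in percent (vertical axis) in each of the 8 libraries (horizontal axis), for the 1279 gaining tiles and the 8961 other intermediate tiles. Boxes give quartiles, the inner line the median and whiskers the 5th to 95th percentile over tiles; the median of the gaining tiles exceeds that of the others only in L-Prolin on day 5, at 78.6% against 70.1%.

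L-proline was also tested in cells that received vitamin C, in 4 libraries that the rule did not use. In these too most gaining tiles were higher with L-proline. L-Prolin-VitC minus VitC had a median of 13.6 points on day 5 (95% order-statistic interval over tiles 12.7 to 14.5) and 8.44 points on day 2 (7.90 to 9.14). In the other intermediate tiles it had a median of 7.01 points on day 5 (6.74 to 7.29) and 5.22 on day 2 (5.01 to 5.41), and over all tiles 2.21 and 1.89. These intervals treat tiles as independent and say nothing of the spread between cultures. On day 5, 583 gaining tiles (45.6%) were 15 points or more higher, where 13.5% of all tiles and 24.2% of the other intermediate tiles were. On day 2, 299 (23.4%) were, where 8.77% of all tiles and 14.03% of the other intermediate tiles were. Gaining tiles 15 points or more lower numbered 7 (0.547%) on day 5 and 12 (0.938%) on day 2. Of all tiles 1.64% and 0.629% were, and of the other intermediate tiles 1.33% and 0.859%.

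**Figure D2:**
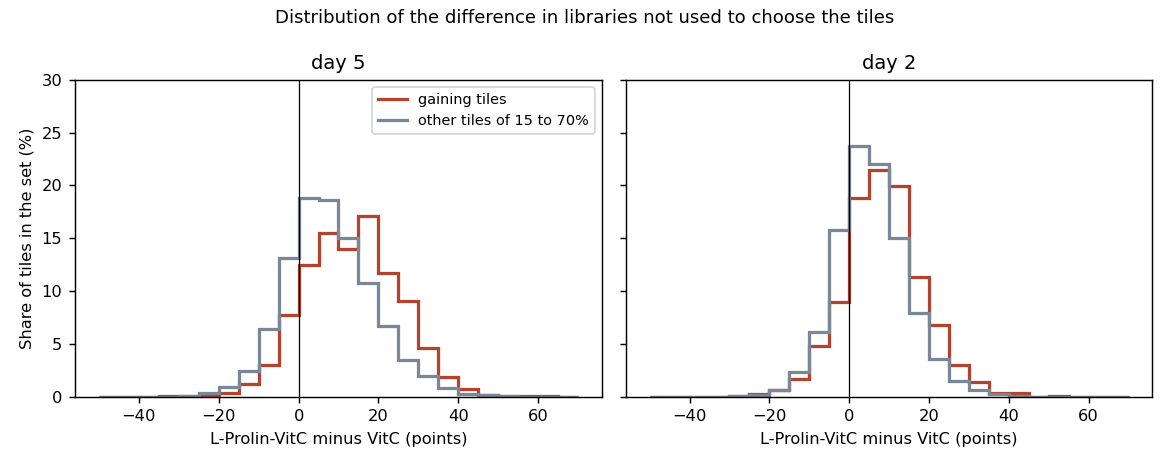
Share of tiles in percent (vertical axis) by L-Prolin-VitC minus VitC in points, in steps of 5 points (horizontal axis), for day 5 and day 2. The gaining tiles lie further to the right than the other intermediate tiles, with medians of 13.6 against 7.01 points on day 5 and 8.44 against 5.22 points on day 2, and the sets overlap over most of their range.

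Both days together gave the same picture. L-Prolin-VitC exceeded VitC on both days in 940 gaining tiles (73.5%), where 46.4% of all tiles and 58.4% of the other intermediate tiles did. It exceeded it by 15 points or more on both days in 159 (12.4%), where 2.65% of all tiles and 5.36% of the other intermediate tiles did. It was lower on both days in 32 gaining tiles (2.50%), where 10.6% of all tiles and 7.01% of the other intermediate tiles were. A further 424 gaining tiles (33.2%) reached 15 points on day 5 alone, where 10.8% of all tiles and 18.8% of the other intermediate tiles did. On day 2 alone 140 (10.9%) did, where 6.12% and 8.67% did, and on neither day 556 (43.5%), where 80.4% and 67.1% did so.

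The calls of each tile were compared by Fisher's exact test (2-sided), which sets library against library and not condition against condition. Tiles were placed at a Benjamini-Hochberg adjusted p under 0.05 over all tiles and a difference of 15 points or more. On day 5 it placed 412 gaining tiles (32.2%) higher in L-Prolin-VitC than VitC, where 8.80% of all tiles and 16.2% of the other intermediate tiles were. On day 2 it placed 225 (17.6%), where 6.70% and 10.6% were. In the other direction it placed 4 gaining tiles (0.313%) on day 5 and 4 on day 2. There 0.737% and 0.333% of all tiles were placed, and 0.435% of the other intermediate tiles on each day. When the calls of a tile were divided by its number of CpGs, which counts a read once where it spans all CpGs of a tile and is too strict where the CpGs lie on separate reads, the same exact test placed 0 gaining tiles on either day, where 0.00% of all tiles were placed on day 5 and 0.0114% on day 2. Which single tiles differ between these libraries therefore depends on how calls are counted.

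The difference between the sets was present in each class of level in untreated cells of day 2. That library is part of the rule, so the classes do not match the sets in level elsewhere. In untreated cells of day 5 the lowest class had a median of 38.0% in gaining tiles and 29.3% in the others. Among tiles at 15% to 30% in untreated cells of day 2, L-Prolin-VitC minus VitC on day 5 had a median of 11.7 points in 446 gaining tiles and 5.83 points in 1783 others. At 30% to 50% it was 14.8 points in 554 gaining tiles and 9.05 in 2285 others, and at 50% to 70% it was 14.5 points in 279 gaining tiles and 6.63 in 4893 others. On day 2 the medians of gaining and other tiles were 7.18 and 3.75 points in the lowest class, 9.25 and 6.59 in the middle class, and 8.84 and 5.43 in the highest. The gaining tiles made up 20.01% of the intermediate tiles at 15% to 30%, 19.5% at 30% to 50% and 5.39% at 50% to 70%. In the lowest class both vitamin C libraries without L-proline were somewhat higher in the gaining tiles, at a median of 14.5% against 9.89% on day 5 and 17.5% against 12.7% on day 2. In the middle class they were also higher, at 27.6% against 25.9% on day 5 and 32.3% against 29.9% on day 2. In the highest class they were lower, at 45.5% against 52.4% on day 5 and 49.3% against 54.5% on day 2.

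The difference was graded over the intermediate tiles rather than set by the 15-point threshold. Where the smaller of the 2 L-Prolin minus untreated differences was under -5 points, L-Prolin-VitC minus VitC had a median of 4.03 points on day 5 and 4.10 on day 2 (679 tiles). Between 5 and 10 points the medians were 8.39 and 5.98 (2479 tiles), between 10 and 15 points 11.2 and 7.01 (1685 tiles), and between 15 and 20 points 12.98 and 8.21 (845 tiles). From 20 to 25 points they were 15.02 and 8.51 (323 tiles), and from 25 points upward 14.9 and 10.5 (111 tiles). On day 5 the medians of these last 2 classes lay within each other's intervals. The classes were not matched on level. In untreated cells of day 2 the median was 53.6% under -5 points, 39.02% at 15 to 20 points and 27.5% from 25 points upward. In VitC on day 5 it was 36.4%, 27.1% and 21.95% in the same classes. How far level enters the gradient was not tested. Tile by tile the relation was weak. Across the 10240 intermediate tiles, which share their libraries and depth, Pearson's r between L-Prolin minus untreated and L-Prolin-VitC minus VitC was 0.207 on day 5 and 0.166 on day 2 (Spearman's rho 0.226 and 0.171), and across the gaining tiles alone r was 0.0654 and 0.0734.

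**Figure D3:**
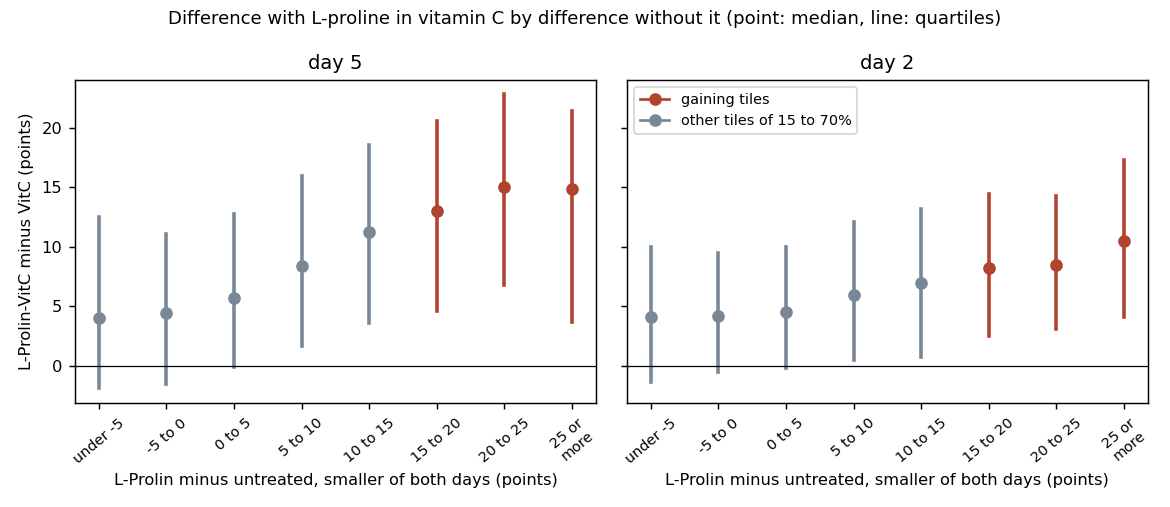
L-Prolin-VitC minus VitC in points on day 5 and day 2 (vertical axis), by the smaller of both days' L-Prolin minus untreated differences in points (horizontal axis), over the 10240 intermediate tiles. Points are medians and lines quartiles over tiles. On day 5 the median is 4.03 points in the lowest class, 12.98 at 15 to 20 points and 15.02 at 20 to 25 points. The classes are not matched on level in untreated cells.

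The higher values were not those of a few chromosomes. On day 5 the median L-Prolin-VitC minus VitC of the gaining tiles lay above that of the other intermediate tiles on 19 of 19 chromosomes, at 9.79 to 17.1 points against 5.49 to 8.52. On day 2 it lay above on 18 of 19, at 5.42 to 10.96 points against 3.96 to 5.98. The exception was chromosome 12, where both medians were 5.42 points.

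**Figure D4:**
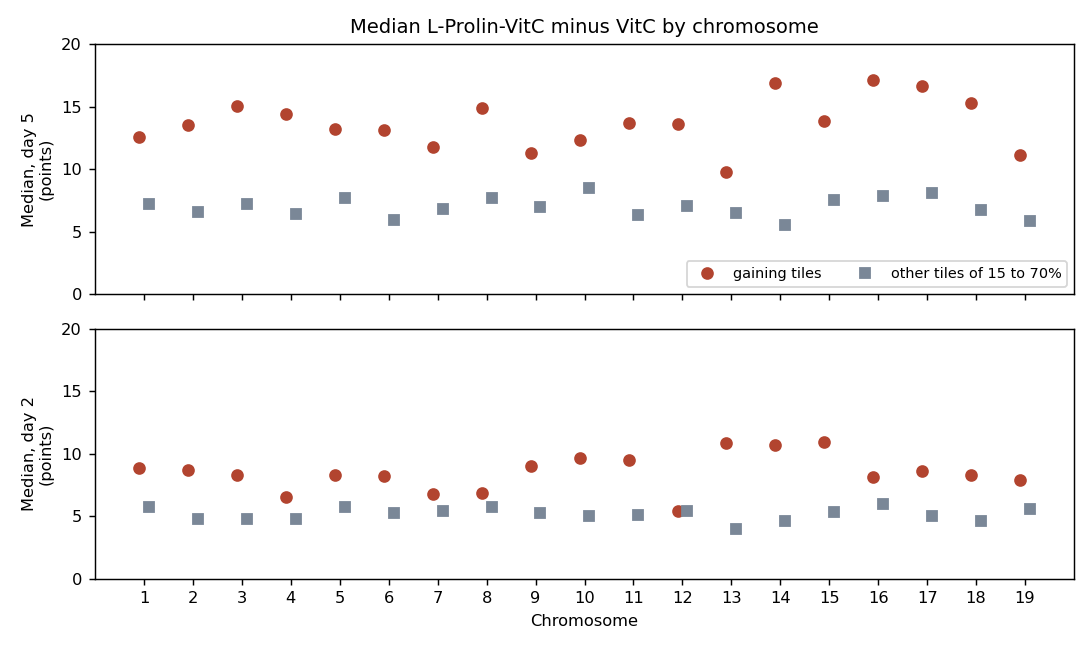
Median L-Prolin-VitC minus VitC in points (vertical axes, day 5 above day 2) on each of chromosomes 1 to 19 (horizontal axis), for gaining tiles and other intermediate tiles. On day 5 the gaining tiles lie at 9.79 to 17.1 points, above the others at 5.49 to 8.52 on each chromosome; on day 2 the medians coincide on chromosome 12.

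Comparisons of vitamin C with its matched library share the untreated or the L-Prolin library with the rule, so they are given as values only. VitC minus untreated had a median of -24.6 points on day 5 and -5.92 on day 2 in the gaining tiles, against -20.9 and -8.04 in the other intermediate tiles. It was 15 points or more lower in 1021 gaining tiles (79.8%) on day 5, where 37.2% of all tiles and 66.8% of the other intermediate tiles were. On day 2 it was so in 233 gaining tiles (18.2%), where 14.4% of all tiles were, and in a larger share of the other intermediate tiles, 24.9%. On day 2 it was as much higher in 35 gaining tiles (2.74%), where 0.683% of all tiles and 1.31% of the other intermediate tiles were. VitC was the lowest of the day's 4 libraries in 1103 gaining tiles (86.2%) on day 5 and 863 (67.5%) on day 2, against 75.1% and 66.3% of the other intermediate tiles. L-Prolin-VitC minus L-Prolin had a median of -34.7 points on day 5 and -18.4 on day 2 in the gaining tiles, against -23.02 and -10.8 in the others. It was 15 points or more lower in 1208 gaining tiles (94.4%) on day 5, where 42.3% of all tiles and 70.1% of the other intermediate tiles were, and in 839 (65.6%) on day 2, where 15.7% and 32.05% were.

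With both supplements the gaining tiles stood below untreated cells on day 5 and slightly above them on day 2, in a comparison that also shares the untreated libraries with the rule. L-Prolin-VitC minus untreated had a median of -10.8 points on day 5 in the gaining tiles and -12.9 in the other intermediate tiles. On day 2 the median was 3.05 points in the gaining tiles, with 63.7% of them above 0, and -2.30 points in the others, with 38.4% above 0. On day 5, 493 gaining tiles (38.5%) were 15 points or more lower than untreated, where 23.1% of all tiles and 43.1% of the other intermediate tiles were. On day 2, 106 (8.29%) were 15 points or more higher, where 1.12% of all tiles and 2.12% of the other intermediate tiles were. L-Prolin-VitC lay between VitC and L-Prolin in 1116 gaining tiles (87.3%) on day 5 and in 1053 (82.3%) on day 2. Of the other intermediate tiles 73.8% and 68.1% had this order, which includes the L-Prolin libraries that the rule used.

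Between the days the gaining tiles differed little in the vitamin C cultures with L-proline and were lower on day 5 in those without it. Day 5 minus day 2 had a median of 0.85 points in L-Prolin-VitC and -3.97 points in VitC in the gaining tiles, against -0.65 and -2.48 points in the other intermediate tiles. The rule used none of these 4 libraries. In VitC, 180 gaining tiles (14.1%) were 15 points or more lower on day 5, where 7.35% of all tiles and 11.4% of the other intermediate tiles were, and 63 (4.93%) were as much higher, where 3.37% and 4.58% were. In L-Prolin-VitC, 117 (9.15%) were 15 points or more higher, where 2.26% of all tiles and 4.83% of the other intermediate tiles were, and 97 (7.58%) as much lower, where 4.36% and 5.55% were. In the libraries of the rule the day difference had a median of 16.8 points with L-Prolin and 14.6 points in untreated cells. In the other intermediate tiles it was 10.4 and 10.1 points. The rule used these libraries, so these are values only.

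The 8 gaining tiles with the largest smaller-of-both-days difference are called A to H. Tile A lies on chromosome 8 from 82319001 to 82320000 (4 CpGs between 82319197 and 82319255, 72 to 272 calls per library). Its level was 37.2% on day 5 and 33.8% on day 2 in L-Prolin-VitC, 90.4% and 56.7% in L-Prolin, 23.3% and 14.2% in VitC, and 51.4% and 16.01% in untreated cells. L-Prolin-VitC thus exceeded VitC on both days, by 13.9 points on day 5 and 19.7 on day 2, and VitC on day 2 was the lowest library. Tile B lies on chromosome 19 from 21812001 to 21813000 (4 CpGs, 84 to 255 calls per library). Its level was 26.2% on day 5 and 29.8% on day 2 in L-Prolin-VitC, 87.4% and 55.1% in L-Prolin, 18.3% and 30.8% in VitC, and 45.5% and 16.7% in untreated cells. Here L-Prolin-VitC exceeded VitC by 7.86 points on day 5, and on day 2 the difference was -1.02 points.

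Tile C lies on chromosome 8 from 113276001 to 113277000 (3 CpGs, 47 to 163 calls per library). Its level was 38.3% on day 5 and 52.2% on day 2 in L-Prolin-VitC, 82.4% and 68.4% in L-Prolin, 16.9% and 33.3% in VitC, and 42.6% and 31.5% in untreated cells. L-Prolin-VitC was higher than VitC on both days, by 21.4 points on day 5 and 18.9 on day 2. Tile D lies on chromosome 13 from 99467001 to 99468000 (3 CpGs, 42 to 122 calls per library). Its level was 67.4% on day 5 and 59.9% on day 2 in L-Prolin-VitC, 92.6% and 70.1% in L-Prolin, 38.8% and 35.8% in VitC, and 55.2% and 33.3% in untreated cells. It was the only one of the 8 tiles in which L-Prolin-VitC exceeded untreated cells by more than 10 points on both days.

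Tile E lies on chromosome 8 from 112648001 to 112649000 (5 CpGs, 95 to 198 calls per library). Its level was 40.002% on day 5 and 33.3% on day 2 in L-Prolin-VitC, 79.4% and 53.8% in L-Prolin, 12.8% and 27.4% in VitC, and 31.7% and 17.5% in untreated cells. The difference between L-Prolin-VitC and VitC was 27.2 points on day 5 and 5.94 on day 2, larger on the later day. Tile F lies on chromosome 7 from 71338001 to 71339000 (3 CpGs, 39 to 113 calls per library). Its level was 19.1% on day 5 and 38.9% on day 2 in L-Prolin-VitC, 75.9% and 60.9% in L-Prolin, 33.4% and 20.5% in VitC, and 40.3% and 23.8% in untreated cells. The vitamin C libraries of this tile disagreed between days, with L-Prolin-VitC minus VitC at -14.3 points on day 5 and 18.4 on day 2.

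Tile G lies on chromosome 8 from 34956001 to 34957000 (5 CpGs, 95 to 266 calls per library). Its level was 40.1% on day 5 and 34.2% on day 2 in L-Prolin-VitC, 78.9% and 63.1% in L-Prolin, 21.95% and 28.1% in VitC, and 43.2% and 27.9% in untreated cells. L-Prolin-VitC exceeded VitC by 18.2 points on day 5 and 6.10 on day 2. Tile H lies on chromosome 6 from 125125001 to 125126000 (4 CpGs, 58 to 138 calls per library). Its level was 48.3% on day 5 and 59.8% on day 2 in L-Prolin-VitC, 94.9% and 67.6% in L-Prolin, 25.99% and 18.9% in VitC, and 44.4% and 33.0% in untreated cells. It had the largest mean difference between L-Prolin-VitC and VitC of the 8, at 22.3 points on day 5 and 40.95 on day 2. On day 2 Fisher's exact test gave an adjusted p of 4.8e-06 on calls and 1.0 on calls per CpG. At single CpGs of tile H on day 2 the L-Prolin-VitC and VitC libraries read 66.7% of 15 reads against 6.2% of 16 reads at position 125125695, and 57.9% of 38 reads against 23.8% of 21 reads at position 125125795.

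**Figure D5:**
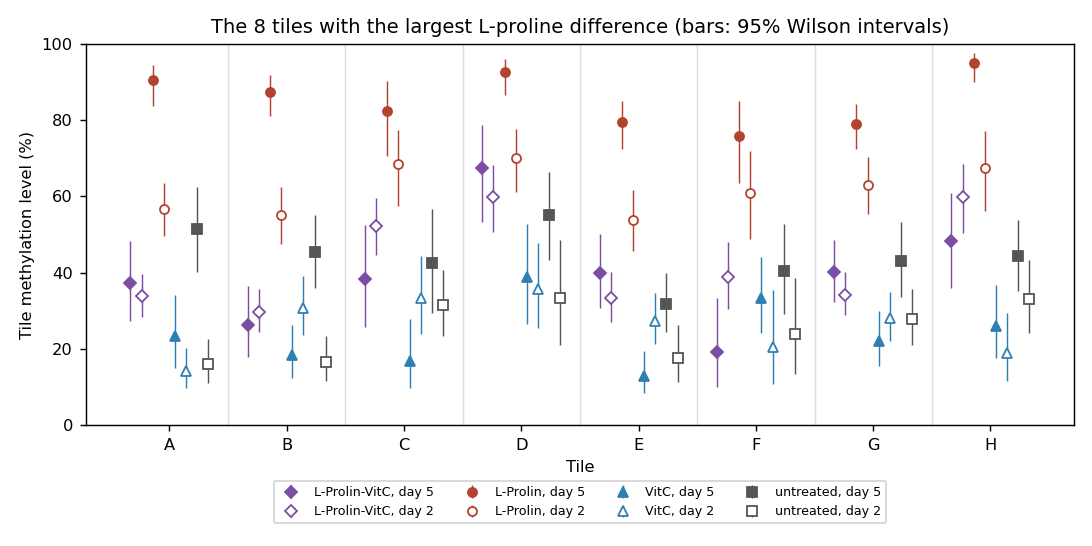
Tile methylation level in percent (vertical axis) in all 8 libraries for tiles A to H (horizontal axis); filled symbols are day 5, open symbols day 2, and bars are 95% Wilson intervals for counting error. L-Prolin on day 5 is the highest library in each tile (75.9% to 94.9%), while L-Prolin-VitC and VitC change places between days in tiles B and F.

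By the mean of both days, L-Prolin-VitC exceeded VitC most in a tile on chromosome 6 from 122617001 to 122618000 (3 CpGs, 50 to 158 calls per library). Its level was 79.97% on day 5 and 44.9% on day 2 in L-Prolin-VitC, 63.8% and 43.8% in L-Prolin, 16.2% and 21.8% in VitC, and 37.99% and 16.7% in untreated cells. L-Prolin-VitC was the highest library of day 5 in this tile, and Fisher's exact test between its L-Prolin-VitC and VitC libraries of day 5 gave an adjusted p of 4.96e-09 on calls and 0.653 on calls per CpG. At its 3 CpGs on day 5 the L-Prolin-VitC and VitC libraries read 83.3% of 12 reads against 0% of 12 reads, 83.3% of 24 against 19.4% of 31, and 71.4% of 14 against 21.1% of 19. A count of 0 in 12 reads allows a share of up to 25%, counting error alone considered.

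The next 3 tiles had differences above 30 points on both days. On chromosome 15 from 54930001 to 54931000 (4 CpGs) the level was 47.7% on day 5 and 44.7% on day 2 in L-Prolin-VitC, 79.3% and 53.2% in L-Prolin, 14.9% and 9.61% in VitC, and 55.7% and 35.5% in untreated cells. On chromosome 17 from 12384001 to 12385000 (3 CpGs) it was 62.8% and 62.8% in L-Prolin-VitC, 91.3% and 68.2% in L-Prolin, 28.9% and 30.4% in VitC, and 66.1% and 48.5% in untreated cells. VitC was the lowest library on both days in both tiles. On chromosome 11 from 96786001 to 96787000 (4 CpGs) it was 52.5% and 55.4% in L-Prolin-VitC, 92.7% and 64.8% in L-Prolin, 21.7% and 20.9% in VitC, and 54.4% and 43.5% in untreated cells. On day 5 L-Prolin-VitC minus untreated was -7.99 points in the first of these 3 tiles, -3.29 in the next and -1.85 in the last.

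At the other end were tiles in which vitamin C with L-proline read lower than vitamin C alone. On chromosome 2 from 164434001 to 164435000 (3 CpGs, 30 to 111 calls per library) the level was 50% on day 5 and 61.3% on day 2 in L-Prolin-VitC, 97.5% and 76.8% in L-Prolin, 63.3% and 81.3% in VitC, and 68.3% and 48.3% in untreated cells. VitC was the highest library of day 2 there. On chromosome 6 from 134913001 to 134914000 (6 CpGs) it was 47.2% and 57.01% in L-Prolin-VitC, 93.5% and 85.9% in L-Prolin, 72.02% and 64.4% in VitC, and 76.3% and 69.5% in untreated cells. The low values in that tile were those of both L-Prolin-VitC libraries. The other 2 tiles, on chromosome 11 from 6485001 to 6486000 and from 84227001 to 84228000, had L-Prolin-VitC minus VitC at -14.3 and -16.5 points on day 5 and -12.6 and -10.1 points on day 2.

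Most CpGs of the gaining tiles were higher with L-proline. The 1279 tiles held 5347 CpGs, of which 93.7% on day 5 and 93.1% on day 2 were higher in L-Prolin than in untreated cells. In the other intermediate tiles 72.3% and 73.6% were. Every CpG was higher in 983 gaining tiles (76.9%) on day 5, against 30.9% of the other intermediate tiles. This is the contrast of the rule, so these values describe the choice. In the libraries outside the rule, 76.7% of CpGs on day 5 and 72.6% on day 2 were higher in L-Prolin-VitC than in VitC, against 65.9% and 64.99% in the other intermediate tiles. Every CpG was higher in 535 gaining tiles (41.8%) on day 5 and 445 (34.8%) on day 2, against 24.997% and 23.4% of the other intermediate tiles. Within a tile the CpG differences on day 5 had a median SD of 13.4 points, against 12.98 points in the others.

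CpGs in the same tiles that missed 10 reads in some library, and so took no part in the levels, also had higher medians with L-proline. L-Prolin minus untreated had a median of 14.3 points over 779 such CpGs on day 5 and 12.7 points over 715 on day 2, against 7.75 and 8.0 points in the other intermediate tiles. L-Prolin-VitC minus VitC had a median of 10 points over 574 on day 5 and 8.80 over 759 on day 2, against 5.20 and 4.70. These CpGs share libraries, and often reads, with those of the rule.

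In position the gaining tiles mostly resembled the intermediate tiles they were drawn from, but fewer of them held many CpGs. They held a mean of 4.18 CpGs, against 4.38 in the other intermediate tiles, and their CpGs stood a median of 30 bases apart, against 24.3. The share of intermediate tiles that gained was 13.3% at 3 CpGs, 12.5% at 4, 13.8% at 5 and 11.6% at 6. It was lower from 7 CpGs upward, at 8.92% at 7, 9.01% at 8, 9.09% at 9 and 6.25% at 10. Tiles with 8 to 10 CpGs made up 4.69% of the gaining tiles and 7.29% of the other intermediate tiles. The sets were not matched on depth. Gaining tiles held a median of 123 calls in untreated cells of day 2, against 148 in the other intermediate tiles. The share that gained was 10.1% with at least 20 reads per CpG and 14.8% when each CpG was thinned to 10 reads. Whether depth enters the shares by CpG number was not tested. By chromosome the share that gained ran from 8.67% on chromosome 12 (95% Wilson interval 6.27 to 11.9) to 15.8% on chromosome 6 (12.7 to 19.4), with 12.5% over all. Of 5 equal stretches along each chromosome, the last held 33.8% of gaining tiles, against 31.3% of the other intermediate tiles.

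Dense unmethylated stretches, which in RRBS data are often CpG islands, were taken as tiles with 11 or more common CpGs and a level under 10% in all 8 libraries. There were 12835 of them. The nearest lay a median of 37 kb from a gaining tile and 40 kb from another intermediate tile, and within 1 kb of 3.44% and 3.98% of them. Among intermediate tiles, 10.97% gained within 1 kb of such a stretch, 12.5% at 2 to 5 kb, 14.5% at 6 to 20 kb, 12.5% at 21 to 50 kb and 11.7% beyond. L-Prolin-VitC minus VitC on day 5 was also lowest next to them, with a median of 10.4 points in the 44 gaining tiles within 1 kb and 14.7 points in the 320 at 6 to 20 kb, and likewise 5.22 and 8.12 points in the other intermediate tiles. In untreated cells of day 2 the gaining tiles within 1 kb had a median level of 27.4% and those at 6 to 20 kb 36.3%.

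Most gaining tiles stood alone, while those with an intermediate tile nearby had another gaining tile as the nearest somewhat more often than the share of gaining tiles among intermediate tiles. Successive gaining tiles on a chromosome lay a median of 642.5 kb apart, and 1207 of them (94.4%) had no other within 10 kb; only 355 of the 1279 had any intermediate tile that near. Where the nearest intermediate tile lay within 10 kb, it was a gaining tile for 60 of 355 gaining tiles (16.9%, 95% Wilson interval 13.4 to 21.1) and for 296 of 2309 others (12.8%, 11.5 to 14.2), where gaining tiles made up 12.5% of intermediate tiles. Within 1 kb the counts were 18 of 91 (19.8%, 12.9 to 29.1) and 75 of 603 (12.4%, 10.04 to 15.3). Gaining tiles that are nearest to each other are both counted, and the 18 are the members of 9 pairs. The intervals treat them as independent and are therefore too narrow. At 1 and 10 kb the intervals of the gaining tiles lay above 12.5%, and they overlapped those of the other intermediate tiles. At 5 kb the share was 16.5%, with an interval of 12.1 to 22.1 that included 12.5%, against 12.2% for the others. At 100 kb it was 14.7% (12.6 to 17.0), against 12.7%. The share within 10 kb moved with the rule. It was 33.3% (22.5 to 46.3) with at least 20 reads per CpG, where gaining tiles made up 10.1% of intermediate tiles, 24.1% (14.96 to 36.5) with at least 5 CpGs per tile, where they made up 11.4%, and 19.9% (16.1 to 24.3) with tiles shifted by 500 bases, where they made up 12.3%. With the unweighted mean of CpGs it was 15.6% (12.1 to 19.9), where they made up 12.5%. With a threshold of 20 points it was 2.75% (0.940 to 7.78), where they made up 4.24%.

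Runs of gaining tiles at most 10 kb apart numbered 35 and held 72 tiles, 33 of the runs with 2 tiles and 2 with 3. L-Prolin-VitC minus VitC, averaged over the tiles and days of a run, was above 0 in 33 of the 35. Tile by tile, it was above 0 in 87.4% of gaining tiles on day 5 and 83.6% on day 2. In the other intermediate tiles it was so in 76.6% and 74.8%, and in all tiles in 65.5% and 68.2%. Averaging several differences that are mostly above 0 raises such a share, so the count does not set runs apart. The run of 3 tiles with the larger L-Prolin minus untreated difference lay on chromosome 2 from 170343001 to 170354000. Its first tile, from 170343001, read 37.99% on day 5 and 37.5% on day 2 in L-Prolin-VitC, 69.9% and 50.5% in L-Prolin, 19.7% and 29.2% in VitC, and 46.5% and 25.2% in untreated cells. Its second, from 170352001, read 22.5% and 22.5% in L-Prolin-VitC, 72.1% and 42.6% in L-Prolin, 15.7% and 15.1% in VitC, and 38.2% and 18.9% in untreated cells. All 3 tiles were highest with L-proline alone, and the third, from 170353001, read nearly the same in L-Prolin-VitC and VitC on day 5 (22.46% against 22.54%) and differed by 7.58 points on day 2 (18.96% against 11.4%). The other run of 3 lay on chromosome 11 from 85721001 to 85739000, with a mean L-Prolin-VitC minus VitC of 12.7 points.

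Intermediate tiles that did not meet the rule but lay near a gaining tile were compared with those near another intermediate tile. A tile near both kinds was counted in both groups, so the groups overlap. In the contrast of the rule the neighbours at 1 kb had a median L-Prolin minus untreated of 10.9 points on day 5 and 8.76 on day 2 in 76 tiles next to a gaining tile, against 10.4 and 8.36 in 529 tiles next to another intermediate tile. Their L-Prolin-VitC minus VitC had medians of 11.7 points on day 5 and 6.46 on day 2, against 8.07 and 5.18. At 2 to 3 kb L-Prolin minus untreated was 12.8 and 8.72 points in 74 tiles, against 9.74 and 7.84 in 466, and L-Prolin-VitC minus VitC was 7.69 and 6.55 points, against 6.54 and 5.20. At 4 to 10 kb 224 tiles lay around gaining tiles and 1088 around others. L-Prolin minus untreated was there 8.50 and 8.77 points, against 9.50 and 7.92, so it was lower around gaining tiles on day 5. L-Prolin-VitC minus VitC was 10.002 and 6.03 points, against 6.98 and 5.67. At 11 to 30 kb L-Prolin-VitC minus VitC was 9.16 and 6.25 points, against 7.90 and 5.72. Its values did not fall steadily with distance, and at 31 to 100 kb they were 7.45 and 5.58 points, against 7.81 and 5.35. These differences between neighbours were not tested.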

How the data were processed

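The 8 RRBS libraries of mouse embryonic stem cells were analysed, assigned to treatment and day by their titles. Per the submitters' processing notes, CASAVA, BSMAP 2.88 and the build mm9 were used; their roles and settings are not given in the sources used here. The files the authors deposited give for each CpG the fraction of reads methylated (0 to 1, 3 decimals) and, as text, the coverage in reads (at least 10, a whole number for 99.25% to 99.61% of CpGs). No normalization is stated.

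Tile levels were computed as described above, with pandas 2.3.3 and numpy 2.4.6. Differences of 15 points were counted, and Fisher's exact tests (scipy 1.17.1, tested on simulated data) with Benjamini-Hochberg adjustment ran over all 35149 tiles. The members, comparisons and named tiles were chosen with earlier results of these data known. Named tiles are the 8 with the largest smaller-of-both-days gain, the 4 highest and 4 lowest by L-Prolin-VitC minus VitC, the longest run, and 2 tiles on each side of the threshold. The order-statistic and Wilson intervals are at 95% and cover tiles or calls as if independent. The reference tables used here are on another build, so tiles were not placed in genes and no sequence is shown. Chromosomes X and Y were not analysed here.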

Additional observations from a re-analysis of the deposited data

How the results depend on the processing

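The difference between gaining and other intermediate tiles in L-Prolin-VitC minus VitC, 6.57 points on day 5 and 3.23 on day 2, lay between 5.82 and 7.51 points on day 5 and between 2.46 and 4.04 on day 2 over 8 alternatives; the 2.46 came with at least 5 CpGs per tile. No median over the gaining tiles changed sign in any alternative, although day 5 minus day 2 in L-Prolin-VitC came to 0 when each CpG was thinned to 10 reads. The unweighted mean of CpGs, tiles shifted by 500 bases and leaving out the highest 1% of coverage moved none of the values listed here by more than their intervals or 1.5 times.

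The number of gaining tiles was 360 with 20 reads per CpG, 393 with at least 5 CpGs, 2964 with a threshold of 10 points and 434 with one of 20 points. Of these tiles, 136, 171, 845 and 149 were placed higher in L-Prolin-VitC than VitC on day 5 by Fisher's exact test, in the same order. On day 2, 59, 62, 475 and 77 were. With the rule as stated the counts were 412 and 225 of 1279. The sets differ in size, so the counts alone do not show a change in share. Of all tiles 8.80% on day 5 and 6.70% on day 2 were placed with either threshold. With 20 reads, at least 5 CpGs or thinning, the shares of all tiles are not given here. Of 1581 gaining tiles after thinning, 48 were placed on day 5 and 8 on day 2. With calls per CpG, 0 of 1279 were placed on day 5 and 0 on day 2. These Fisher alternatives were chosen after seeing the data.

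With a threshold of 10 points the median L-Prolin-VitC minus VitC was 12.04 points on day 5 and 7.80 on day 2, L-Prolin-VitC minus L-Prolin -32.3 and -16.7, and VitC minus untreated on day 2 -7.08. With 20 points L-Prolin-VitC minus VitC on day 5 was 14.96, L-Prolin-VitC minus L-Prolin -37.8 and -19.8, and VitC minus untreated on day 2 -3.83. With at least 5 CpGs L-Prolin-VitC minus VitC on day 2 was 7.55 and L-Prolin-VitC minus L-Prolin on day 5 -33.9. After thinning, L-Prolin-VitC minus VitC was 12.5 and 7.5, L-Prolin-VitC minus L-Prolin -33.3 and -20, and VitC minus untreated -22 and -4.29, on day 5 and day 2.

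The share of gaining tiles 15 points or more higher in L-Prolin-VitC than VitC on day 2 was 20.3% with 20 reads, 17.8% with at least 5 CpGs, 21.02% with 10 points and 29.2% after thinning. On day 5 it was 39.8% with 10 points and 50% with 20 points. Of all tiles 13.5% on day 5 and 8.77% on day 2 were as much higher with either threshold. Under the other alternatives the value for all tiles is not given here. There a change in the gaining tiles cannot be told from one in every tile. The share whose nearest intermediate tile within 10 kb gained was 33.3% with 20 reads, 24.1% with at least 5 CpGs, 32.96% with 10 points and 2.75% with 20 points, where gaining tiles made up 10.1%, 11.4%, 28.9% and 4.24% of intermediate tiles. The cause of these shifts was not tested, beyond the change in which tiles are counted.

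No paired analysis was possible because the labels give no replicate numbers and each treatment and day has 1 library; a fit that pairs libraries across vitamin C and day would rest on the libraries that chose the tiles. Leaving out a replicate was not possible for the same reason. Coverage in L-Prolin-VitC on day 5 (median 27 reads per common CpG) limits the precision of its tile levels.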
